A study of Mus musculus with 9 samples.

Results

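Distal chromatin accessibility was compared gene by gene between cells of the Tbx1 lineage that kept a working copy of Tbx1 and cells of the same lineage that had lost it. The comparison used 6 of the 9 ATAC-seq libraries of the series, 3 labelled Ctrl and 3 labelled cKO. Peaks of these 6 libraries on the 19 autosomes and the X chromosome were merged into 65379 regions, of which 47574 had their midpoint over 1 kb from every annotated transcription start site (TSS) and are called distal here. Each distal region was given to the protein-coding gene with the nearest TSS, which gave 12081 genes with a distal region. The 3239 genes with a mean of at least 2 distal regions per library were tested, and the other 8842 genes were not. A nearest gene is a label of position, and no regulation of that gene was measured.

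All libraries came from GFP-positive, DAPI-negative cells sorted from Swiss Webster embryos at E9.5, with embryos pooled per library. The study pooled fewer embryos in each cKO library than in each Ctrl library, and fewest in cKO 3. Ctrl embryos carried Tbx1Cre with a Cre-dependent GFP reporter at Rosa26 (Rosa26-GFPflox/+). Since Cre is inserted in the Tbx1 gene, they had 1 Tbx1 allele that carried Cre in place of a normal one. cKO embryos carried the same Cre allele over a floxed Tbx1 allele (Tbx1Cre/flox) with the same reporter, so that cells that switched on Cre lost their remaining working copy and were also the cells that turned green. Both groups therefore shared the Cre allele, and no group with 2 normal Tbx1 alleles was compared here. The labels give the dissected tissue as pharyngeal apparatus and heart with back, whereas the methods of the study describe a dissection without the heart for this assay, and the libraries were taken as labelled. The remaining 3 libraries came from the Mesp1-Cre lineage with normal Tbx1 and are quoted only side by side.

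Tbx1 encodes a T-box transcription factor of the pharyngeal apparatus, and it is the gene most closely tied to the heart and facial muscle defects of 22q11.2 deletion syndrome. The Tbx1 lineage holds pharyngeal mesoderm, which forms the second heart field and the branchiomeric muscles, and also pharyngeal endoderm and ectoderm. ATAC-seq cuts DNA where it is not wrapped in nucleosomes, so that peaks mark open promoters and distal elements such as enhancers. Distal elements are the part of open chromatin that differs most between cell types, which is why genes of developmental regulators often have many of them.

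The distal regions behind the results are shown first as sequence. For Tbx1 and for the 4 genes of smallest p in each direction, the region whose number of calling libraries differed most in the direction of the gene's group was chosen (for Tbx1, most calls in Ctrl over cKO), with ties settled by the wider peaks. In Trim27 no region was called in more cKO than Ctrl libraries, so a region called in all of them is shown, and in Kdm6b another region, called in 2 Ctrl libraries and 0 cKO libraries, differed more in the opposite direction. The central 200 bases are given on the plus strand of NCBIM37 (mm9), and capitals mark a match to any of the 3 motifs described further on.

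The region of Tbx1 lay at chr16:18602096-18602295, 14.083 kb from the TSS and in an intron of the neighbouring 4930588K23Rik, and was called in 3 Ctrl libraries and 1 cKO library.
Tbx1: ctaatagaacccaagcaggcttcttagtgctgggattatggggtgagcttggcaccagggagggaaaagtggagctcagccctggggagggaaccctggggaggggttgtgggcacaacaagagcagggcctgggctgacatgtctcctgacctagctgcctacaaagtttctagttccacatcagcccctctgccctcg
The next 4 belonged to the genes with the lowest p and a lower share in cKO, and each was called in 3 Ctrl libraries and in 0 cKO libraries. They lay at chr11:36500648-36500847 (an intron of Odz2), chr13:70788942-70789141 (intergenic, BC018507), chr10:99449578-99449777 (intergenic, Kitl) and chr3:83864073-83864272 (intergenic, D930015E06Rik).
Odz2: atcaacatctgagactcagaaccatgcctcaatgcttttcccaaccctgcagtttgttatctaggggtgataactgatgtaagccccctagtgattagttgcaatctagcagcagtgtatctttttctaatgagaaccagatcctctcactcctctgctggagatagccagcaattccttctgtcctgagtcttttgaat
BC018507: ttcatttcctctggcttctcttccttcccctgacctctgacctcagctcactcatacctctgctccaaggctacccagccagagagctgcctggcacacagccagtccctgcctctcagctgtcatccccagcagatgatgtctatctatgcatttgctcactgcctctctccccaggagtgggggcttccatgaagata
Kitl: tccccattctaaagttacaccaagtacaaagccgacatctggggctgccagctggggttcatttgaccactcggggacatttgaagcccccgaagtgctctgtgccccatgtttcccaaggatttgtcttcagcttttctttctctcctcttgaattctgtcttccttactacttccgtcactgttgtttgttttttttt
D930015E06Rik: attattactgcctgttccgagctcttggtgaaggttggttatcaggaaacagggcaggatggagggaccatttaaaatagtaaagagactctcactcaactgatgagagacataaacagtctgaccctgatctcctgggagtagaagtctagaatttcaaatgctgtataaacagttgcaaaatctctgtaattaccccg
The last 4 belonged to the genes with the lowest p and a higher share in cKO. Those of Olfr161 (chr16:3236064-3236263, intergenic) and Fam159a (chr4:108060401-108060600, intergenic) were called in 2 cKO libraries, against 1 Ctrl library and 0 Ctrl libraries. That of Kdm6b (chr11:69285292-69285491, an intron of Dnahc2) was called in 1 cKO library alone, and that of Trim27 (chr13:21314392-21314591, intergenic) in all 6.
Olfr161: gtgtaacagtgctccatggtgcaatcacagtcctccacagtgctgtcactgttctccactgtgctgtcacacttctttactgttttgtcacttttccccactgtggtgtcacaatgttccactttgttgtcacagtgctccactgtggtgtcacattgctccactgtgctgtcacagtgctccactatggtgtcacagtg
Kdm6b: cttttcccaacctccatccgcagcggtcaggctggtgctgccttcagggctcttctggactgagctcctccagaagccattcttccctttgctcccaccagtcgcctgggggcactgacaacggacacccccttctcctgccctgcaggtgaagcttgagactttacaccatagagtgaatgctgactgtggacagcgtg
Fam159a: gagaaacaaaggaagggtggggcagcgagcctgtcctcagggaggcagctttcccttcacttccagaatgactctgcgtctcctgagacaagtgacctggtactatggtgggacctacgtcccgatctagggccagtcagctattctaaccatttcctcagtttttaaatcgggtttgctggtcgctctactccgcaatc
Trim27: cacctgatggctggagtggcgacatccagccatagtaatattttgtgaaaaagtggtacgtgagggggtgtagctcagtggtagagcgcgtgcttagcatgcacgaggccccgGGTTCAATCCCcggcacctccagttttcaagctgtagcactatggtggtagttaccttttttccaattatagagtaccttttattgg

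Fewer distal regions were called in cKO than in Ctrl, and they made up a smaller part of each list. The Ctrl libraries held 31017, 26886 and 30262 distal regions and the cKO libraries 14221, 9739 and 7027, so that the groups did not overlap. The means were 29388 ± 2200 and 10329 ± 3633 (SD, n = 3 each), 64.9% lower in cKO. Distal regions made up 66.1%, 64.5% and 66.8% of the called regions in Ctrl and 51.7%, 43.6% and 38.0% in cKO, a mean of 65.8% ± 1.16 against 44.4% ± 6.92. The exact two-sided permutation test gave p = 0.1 for both, the smallest value that 3 libraries against 3 can give. The cKO lists were also shorter as a whole, with 29249, 24026 and 19762 peaks on these chromosomes against 49477, 43271 and 46983. When the same number of widest peaks, 19762, was kept in every library, the difference in distal regions narrowed to 16.0%, from 8588 ± 97.6 to 7215 ± 354, and the distal shares were 43.8% ± 0.489 and 38.3% ± 1.25 (exact permutation p = 0.1 again). Sequencing depth is unknown from peak lists. List length, the number of embryos pooled and genotype cannot be told apart here. In addition, fewer cells of a type with an open region and a less open region in each cell cannot be told apart in bulk libraries.

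**Figure D1:**
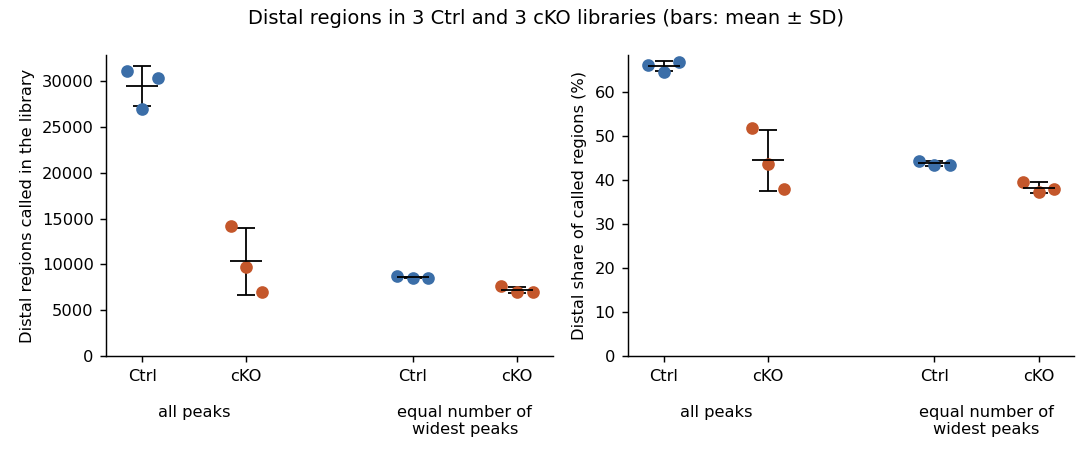
Distal regions called (left panel, number) and their share of all called regions (right panel, percent) in the Tbx1-Cre libraries, with all peaks and with the 19762 widest peaks of each library. Points are libraries and bars mean ± SD over 3. The cKO points lie below the Ctrl points in all 4 comparisons, and the gap narrows when list length is made equal.

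Ctrl 1 stood apart from Ctrl 2 and Ctrl 3. Ctrl 1 shared fewer distal regions with Ctrl 2 and Ctrl 3 (Jaccard index, shared over all called in either, of 0.439 and 0.479) than these shared with each other (0.553). Across genes, which are not independent replicates, the log2 shares of Ctrl 1 had a Pearson correlation of 0.386 and 0.511 with those of Ctrl 2 and Ctrl 3, which correlated at 0.826 with each other. Results without Ctrl 1 are therefore given beside the counts below. The sorted cells had open distal regions near markers of several cell types: the 8 cardiopharyngeal mesoderm markers held 39, 41 and 39 distal regions in Ctrl and 26, 16 and 19 in cKO, the 5 pharyngeal endoderm markers 24, 38 and 45 against 17, 9 and 8, and the 4 endothelial markers 36, 31 and 36 against 12, 9 and 4. The source is labelled as pharyngeal mesoderm, and distal regions near markers of each of these classes were called in every library. The 3 blood markers held 3, 3 and 4 regions in Ctrl and 2 in each cKO library. Epithelium markers held 22, 19 and 18 against 13, 6 and 7, and otic placode markers 6, 7 and 5 against 5, 2 and 1. Neural markers held 7, 7 and 8 against 5, 4 and 2, and neural crest markers 4, 1 and 1 against 1 in each. Distal regions as a whole were 64.9% fewer in cKO, so these raw counts do not show a change in the share of any class. The part of these cell types in the results below was not tested.

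To remove the overall drop, each gene was described by its share, the number of its regions called in a library per 10000 distal regions called in that library. A gene whose regions are called in every library therefore has a higher share in cKO by construction, because the cKO totals are smaller. No gene passed limma's test at an adjusted p of 0.05 (0 of 3239, 0.0%), and the smallest adjusted p was 0.213 (0.0503 over the alternatives). On simulated counts the same test recovered 0 of 174 planted 2-fold lower and 0 of 117 planted 2-fold higher shares. A count of 0 genes therefore does not show that no gene changed. At an unadjusted p under 0.05 limma gave 540 genes, 201 with a lower share in cKO (6.21% of genes tested) and 339 with a higher one (10.5%). A quasi-Poisson model of the counts also gave 0 genes after adjustment and 453 at an unadjusted p under 0.05. In 240 genes (7.41%) every cKO share lay below every Ctrl share and in 566 genes (17.5%) above it. Leaving out a library eases the criterion, and the lower count was then 577 without Ctrl 1 and 526, 476 and 433 without cKO 1, 2 and 3. The higher count was 672 without Ctrl 1 and 857 without cKO 2. At an unadjusted p under 0.05, the lower count was 73 without Ctrl 2, 69 without Ctrl 3 and 386 without cKO 1, and the higher count was 208 without Ctrl 2 and 199 without Ctrl 3. The genes named from here on are described by their values, and none of the differences passed the adjusted test.

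The median difference over all genes tested was -0.01 on the log2 scale. Genes with 1 or 2 distal regions took 18.3% ± 0.883 of the calls in Ctrl and 22.1% ± 0.516 in cKO, whereas genes with over 20 took 8.84% ± 0.115 and 7.78% ± 0.248. Among the 152 genes with over 20 regions, 21 lay below without overlap and 5 above, with a median of -0.26. Among the 862 tested genes with 3 to 5 regions, 18 lay below and 284 above, with a median of 0.41. These values are a description and no test was read from them, since the number of regions was counted over the same 6 libraries and 37.4% of all regions were called in 1 Ctrl library alone, so that genes with many regions were in part those with calls in Ctrl only. The filter also left few ways for a gene with few regions to have a lower share in cKO.

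**Figure D2:**
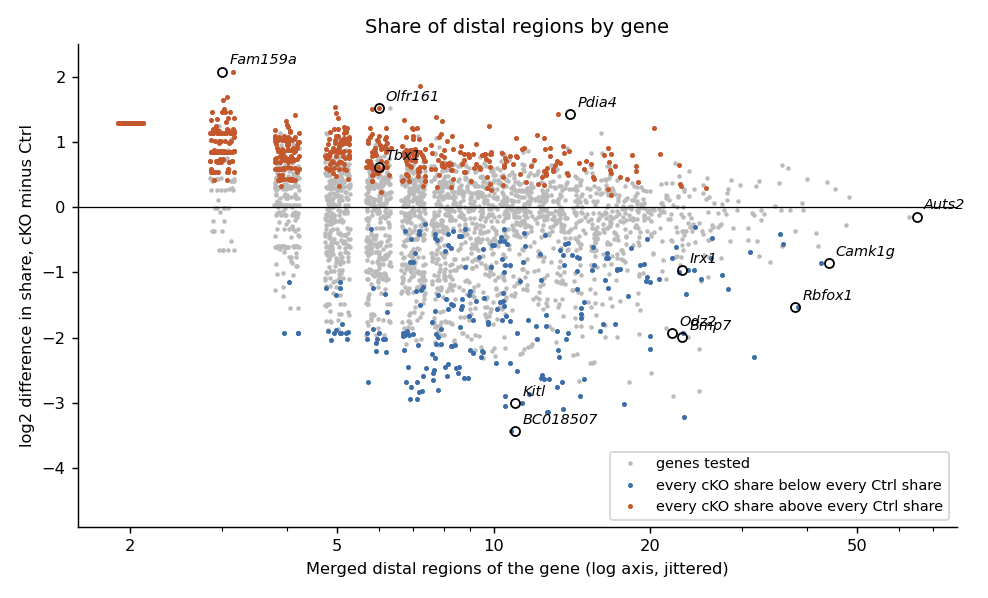
Difference in share between cKO and Ctrl (log2, vertical axis) against the number of merged distal regions of each of the 3239 genes tested (horizontal log axis, with jitter). Blue and orange points are the 240 and 566 genes without overlap between the groups, and the genes ringed in black are described in the text. Orange points crowd at genes with few regions, and blue points spread over genes with more regions.

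The 12 genes with the smallest p and a lower share in cKO were Odz2, BC018507, Kitl, D930015E06Rik, Fat4, Ptprt, Accn1, Wwox, Irx1, Ptprd, Mme and Rbfox1. Odz2, which encodes the transmembrane adhesion protein teneurin 2, led them. Of its 22 distal regions, 9, 16 and 17 were called in Ctrl 1, 2 and 3 and 1 in each cKO library. Its share was 4.82 ± 1.67 in Ctrl and 1.05 ± 0.361 in cKO per 10000 regions, a log2 difference of -1.94 ± 0.36 (SE, limma adjusted p = 0.213). The groups did not overlap, and Ctrl 1 was the lowest Ctrl library. Its regions lay 45.323 to 1702.59 kb from the TSS, with 9 in introns of the gene and 13 in the intergenic stretch beside it. Of the 22, 5 were called in 3 Ctrl and 0 cKO libraries, as were 9.23% of all distal regions. A high count is partly implied by picking the gene for few cKO calls. The Mesp1-Cre libraries called 8, 2 and 1 of the 22 regions.

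Kitl encodes the ligand of the Kit receptor, which pigment cell, germ cell and blood precursors need. Its 11 regions were called 7, 8 and 11 times in Ctrl and 1, 0 and 0 times in cKO, which gave shares of 2.96 ± 0.689 and 0.234 ± 0.406 and a log2 difference of -3.01 ± 0.67 (limma adjusted p = 0.213). Of these regions 4 lay in introns of Kitl and 7 were intergenic, up to 115.848 kb away. No library of one group reached the level of the other.

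BC018507 had 11 distal regions, called 6, 7 and 9 times in Ctrl and never in cKO. The 0 calls of cKO, set at the floor of 3 calls over the group's 30987, give a share at least 2.58-fold lower. The same regions were called 6, 1 and 2 times in the Mesp1-Cre libraries. Of the 11, 4 were called in 3 Ctrl and 0 cKO libraries, as were 9.23% of all distal regions.

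Fat4 encodes a giant cadherin of the planar polarity system. It had 11, 7 and 11 regions in Ctrl and 1 in each cKO library, a share of 3.26 ± 0.572 against 1.05 ± 0.361. The single region kept in every cKO library was also the one nearest to the TSS, 1.304 kb away, and it was called in all 3 Mesp1-Cre libraries. Its remaining regions were called in Ctrl and in no cKO library, and 3 of them also in Mesp1-Cre libraries.

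Irx1, a homeobox gene of the Iroquois family that patterns embryonic fields, had close values within each group. Of its 23 regions, all intergenic and up to 504.911 kb away, 15, 13 and 14 were called in Ctrl and 3, 2 and 2 in cKO. The share was 4.77 ± 0.121 in Ctrl and 2.34 ± 0.442 in cKO, with a log2 difference of -0.97 ± 0.24 (limma adjusted p = 0.213). With equal numbers of widest peaks the difference was -0.05. The 2 regions at 170.606 and 504.911 kb were called in all 9 libraries.

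Rbfox1, a splicing factor of neurons and muscle, had 38 regions, with 14, 26 and 26 called in Ctrl and 3, 4 and 1 in cKO. Its share was 7.59 ± 2.72 in Ctrl and 2.55 ± 1.39 in cKO. Wwox, which encodes an oxidoreductase at a common fragile site, had 18, 11 and 16 regions in Ctrl and 2, 3 and 1 in cKO. The receptor tyrosine phosphatase genes Ptprt and Ptprd had 6, 19 and 15 against 2, 0 and 0 regions and 7, 11 and 16 against 2, 1 and 1. In these genes except Wwox, Ctrl 1 had the lowest count of the Ctrl libraries.

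The remaining 3 genes showed the same order. Mme, which encodes the membrane protease neprilysin, had 4, 9 and 12 regions in Ctrl and 1, 0 and 0 in cKO. Accn1, an acid-sensing ion channel gene, had 13, 6 and 6 against 1, 0 and 0, with Ctrl 1 as the highest library. D930015E06Rik had 11, 8 and 11 against 2, 1 and 1, and its share of 3.39 ± 0.358 in Ctrl was close to the 3.33 ± 0.589 of the Mesp1-Cre libraries and above the 1.29 ± 0.224 of cKO. In matching on peak width, a gene was set against the calls expected from regions of like width. The 12 genes then kept negative differences, from -0.70 for Irx1 to -3.05 for Mme. They had been picked by p from the same calls, so a kept sign or a small p here is no separate check. The unadjusted limma p after width matching was 0.052 for Odz2, 0.064 for Fat4 and 0.11 for Wwox and Irx1. It was 0.12 for Ptprd, 0.13 for Rbfox1 and under 0.05 for the others of the 12. With equal numbers of widest peaks only Fat4, Wwox, Irx1 and Rbfox1 passed the filter.

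**Figure D3:**
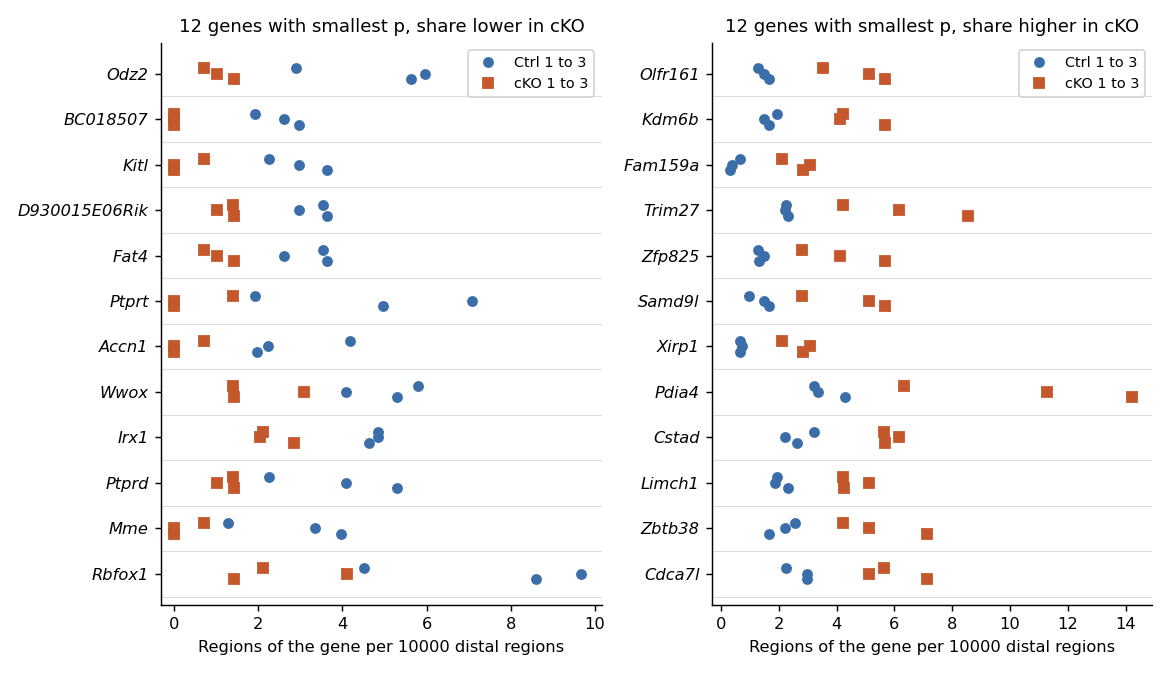
Share of distal regions per library (regions of the gene per 10000 distal regions, horizontal axis) for the 12 genes with the smallest p in each direction. Circles are Ctrl and squares cKO libraries. In all 24 genes the circles and squares do not overlap, and in none did the difference pass the adjusted test. The genes were picked by p from these same shares, so the lack of overlap is no separate result.

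The 12 genes with the smallest p and a higher share in cKO were of another kind. They were Olfr161, Kdm6b, Fam159a, Trim27, Zfp825, Samd9l, Xirp1, Pdia4, Cstad, Limch1, Zbtb38 and Cdca7l. In most of them the regions were called about as often in both groups or less often in cKO, and the share was higher in cKO where the totals were smaller. More calls in cKO were found for Fam159a, with 1.33 regions in Ctrl and 2.67 in cKO on average, and Xirp1, with 2 and 2.67. The means were also slightly higher in cKO for Olfr161, 4.33 and 4.67, and Samd9l, 4 and 4.33. Kdm6b, which encodes a histone H3K27 demethylase, had 6, 4 and 5 regions in Ctrl and 6, 4 and 4 in cKO. Its share was 1.69 ± 0.226 in Ctrl and 4.67 ± 0.885 in cKO, a log2 difference of 1.33 ± 0.26 (limma adjusted p = 0.213), and it was 3.39 ± 0.447 in the Mesp1-Cre libraries. Of its 7 regions, 4 were called in all 9 libraries, and these lay within 5.339 kb of the TSS.

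Pdia4, a protein disulfide isomerase gene of the endoplasmic reticulum, had 10, 9 and 13 regions in Ctrl and 9, 11 and 10 in cKO. The share was 3.62 ± 0.586 against 10.6 ± 3.99. Of its 14 regions, 9 were called in all 6 libraries, as were 9.09% of all distal regions. These 9 formed a run of intergenic peaks 35.071 to 73.403 kb from the TSS.

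Zfp825, a zinc finger gene, had 4 regions, and all 4 were called in each of the 9 libraries. Its share thus differed only through the totals, 1.37 ± 0.106 in Ctrl and 4.20 ± 1.44 in cKO, and its log2 difference of 1.41 became 0.46 after matching on peak width. Trim27, a RING-finger ubiquitin ligase gene, had 7, 6 and 7 regions in Ctrl and 6 in each cKO library, and its difference of 1.33 became 0.56 after width matching and -0.04 with equal numbers of widest peaks. Limch1, which encodes an activator of non-muscle myosin, went from 1.07 to -0.12 with equal numbers of widest peaks.

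Fam159a was the gene of the 12 with the largest difference and had 1 region that only cKO libraries called among the 6. Olfr161, Kdm6b, Xirp1, Cstad, Limch1 and Zbtb38 also had 1 such region each, and Cdca7l had 2. Fam159a had 3 regions in all, with 2, 1 and 1 called in Ctrl and 3, 3 and 2 in cKO, a log2 difference of 2.08 ± 0.43. The region shown above, 4.547 kb from the TSS, was called in cKO 1 and cKO 2 and also in Mesp1-Cre Ctrl 1. Olfr161, an olfactory receptor gene, had 4, 4 and 5 regions in Ctrl and 5, 5 and 4 in cKO, all of them 240.756 kb or more from its TSS. The sequence shown above for Olfr161 holds close copies of a short stretch of bases, and no blacklist of genome regions was applied before counting.

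By the widest peak over the 6 libraries, distal regions called in Ctrl alone were narrower than those called in all libraries. This maximum is taken over more peaks where more libraries call a region, so it can grow with that number by construction. Of all distal regions, 4390 (9.23%) were called in 3 Ctrl and 0 cKO libraries, and 4324 (9.09%) in all 6. Only 7 were called in 3 cKO and 0 Ctrl libraries. The median of the widest peak of a region was 557.5 bp for the first class and 807 bp for the second, with 607 and 677 bp for regions that 1 or 2 cKO libraries also called. A peak in a Mesp1-Cre library was present at 51.7% of the first class and 96.3% of the second. The regions of the 240 genes that lay below without overlap likewise had narrow peaks (median 371 bp against 421 bp over all tested genes), and those of the 566 genes above had wide ones (549.5 bp). Of the 240, 238 kept the sign of their difference after width matching, as did 538 of the 566 and 2793 of all 3239 genes tested. The 240 and 566 genes were picked from the same calls, so a kept sign is no separate check. Peak width, taken as this maximum, and loss of a call moved together in part through how the width was measured. The width matching used the same maximum. The part of width in the differences beyond the width-matched values was not tested.

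By distance to the TSS the groups overlapped. Regions at 100 to 500 kb made up 18.2%, 24.9% and 23.5% of distal calls in Ctrl and 18.3%, 19.2% and 17.8% in cKO (exact permutation p = 0.3). Regions at 5 to 20 kb made up 28.0%, 22.6% and 23.7% against 28.3%, 27.3% and 28.1% (exact permutation p = 0.2). In both classes Ctrl 1 lay with the cKO libraries, and Ctrl 2 and Ctrl 3 lay apart.

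**Figure D4:**
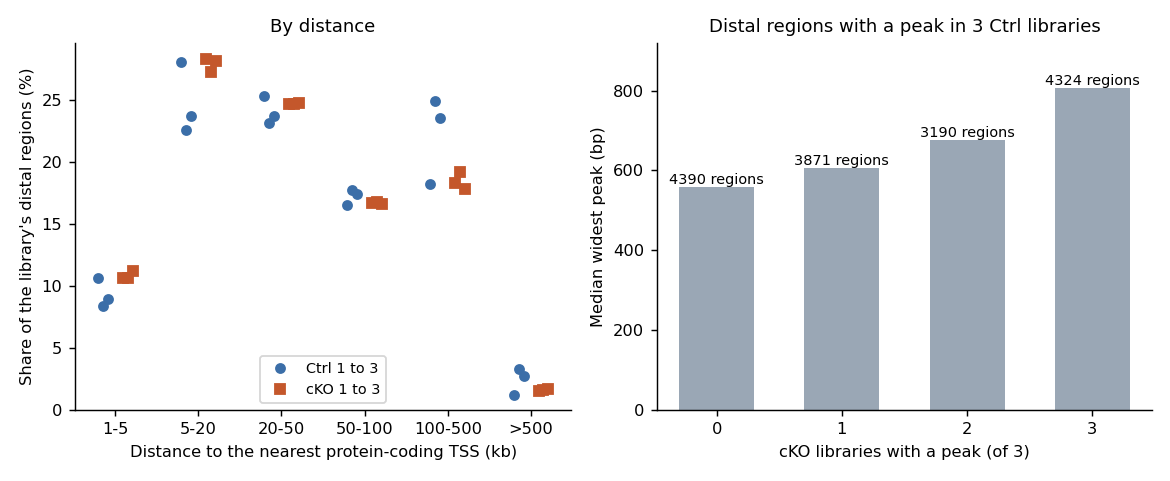
Left, the share of each library's distal regions (percent) by distance to the nearest protein-coding TSS, with circles for Ctrl and squares for cKO libraries. Right, the median of the widest peak (bp) of distal regions called in 3 Ctrl libraries, by how many cKO libraries also called them. At 100 to 500 kb Ctrl 1 lies at 18.2%, among the cKO libraries, and on the right the width grows from 557.5 to 807 bp. The widest peak is taken over more libraries towards the right, so the measure can grow by construction.

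Short motifs were counted in the central 200 bases of every distal region, on both strands. The T-box core AGGTGTNA, which TBX1 and its relatives bind, was present in 2.15% of all distal regions, in 1.69% of those called in 3 Ctrl and 0 cKO libraries and in 1.5% of those called in all 6. It was found in 0 of the 227 regions of the 12 leading lower genes and in 2 of the 92 of the leading higher genes, which are Xirp1 and Cdca7l with 1 each. The core of the CTCF motif was present in 4.79% of all distal regions, 3.83% of the first class and 5.06% of the second. The B box, the internal promoter element of tRNA genes, was present in 0.547% of all distal regions, 0.456% of the first class and 0.856% of the second. In Trim27 4 of 8 regions held a B box match, and the stretch in capitals in its sequence above is one of them. These are matches to letters and do not show binding. The share of windows that would match such short patterns by chance was not computed, so no scarcity or excess of sites is read from them. The study, with another motif search, reported T-box motifs as enriched in its regions of changed accessibility that were also open in the Mesp1 lineage. That search was not repeated here. The median GC content of the windows was 50% for the first class and 54.5% for the second. The 3 motifs were chosen with earlier results of these data known, the B box and CTCF motifs after values had been seen.

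Tbx1 itself had 6 distal regions, of which 6, 4 and 3 were called in Ctrl and 3, 2 and 2 in cKO. Its share was 1.47 ± 0.472 in Ctrl, 2.34 ± 0.442 in cKO and 2.55 ± 0.896 in the Mesp1-Cre libraries, and the log2 difference between cKO and Ctrl was 0.61 ± 0.34 (limma adjusted p = 0.361). Regions 35.175 and 31.445 kb from the TSS, in introns of Gnb1l, were called in all 9 libraries. The region shown as sequence had peaks of 779, 738 and 685 bp in Ctrl, 273 bp in cKO 1 and no peak in cKO 2 and cKO 3. Region calls around Tbx1 do not check the deletion, since the peak lists hold no reads over the floxed exons.

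Other T-box genes differed in their values without a common direction. In this and the following lists, members without overlap are to be read against 7.41% below and 17.5% above among all genes tested. Of 13 T-box genes, 13 had a distal region and 7 were tested. Their median difference was -0.37 (-0.34 after width matching), against -0.01 over all genes, with 1 below without overlap, the mesoderm gene T, and 1 above, Tbx1 itself. Tbx15, a gene of limb and craniofacial mesenchyme, had 1, 9 and 8 regions in Ctrl and 1, 0 and 0 in cKO, so that Ctrl 1 lay with the cKO libraries. Tbx3, of limb, heart and otic tissue, had 23, 7 and 13 regions against 4, 3 and 3, with shares of 4.77 ± 2.44 and 3.39 ± 0.775. Tbx18, a gene of the posterior heart field, had 13, 9 and 13 against 8, 6 and 3.

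Genes of the cardiopharyngeal mesoderm and second heart field came next. Of 24 genes, 22 had a distal region, 15 were tested, 1 lay below and 2 above without overlap (Osr1, and Hand2 and Smarcd3), and the median difference was 0.21, or 0.0018 after width matching. Osr1, a zinc finger gene of the posterior second heart field, had 6, 6 and 7 regions in Ctrl and 1 in each cKO library, shares of 2.16 ± 0.199 and 1.05 ± 0.361 and a log2 difference of -0.92 ± 0.36 (limma adjusted p = 0.265). Hand2, a helix-loop-helix gene of the heart and pharyngeal arches, had 5, 6 and 6 against 4, 3 and 3 regions and a difference of 0.72 ± 0.28 without overlap. Isl1, which marks the second heart field, had 6, 9 and 9 against 5, 2 and 3 regions, with overlapping shares of 2.75 ± 0.732 and 3.28 ± 1.13. Mef2c, with 23 regions, had 8, 16 and 15 against 8, 5 and 8. The forkhead genes Foxc1 and Foxc2 had 19 regions each, with differences of -0.10 and 0.25.

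In the branchiomeric muscle list 10 of 15 genes were tested, 0 lay below and 2 above without overlap, and the median was 0.06, or -0.030 after width matching. The 2 were Six2, with 13, 9 and 8 against 6, 5 and 5 regions, and Ebf2, with 8, 6 and 7 against 6, 3 and 3. Ebf1 and Eya1 had differences of -0.30 and -0.04. Of 17 genes of cardiac muscle structure only 2 were tested, Tpm1 at 0.82 ± 0.39 and Ryr2 at -0.14 ± 0.41. Ttn, too low to be tested, had 1, 4 and 4 regions in Ctrl and 0 in each cKO library.

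The endothelium and blood list had 8 of 20 genes tested, 3 below (Kdr, Erg and Cdh5) and 1 above (Flt1) without overlap. Among all genes tested 7.41% lay below and 17.5% above. The median of the list was -0.23, or -0.29 after width matching. Kdr, the main VEGF receptor of endothelium, had 14, 9 and 9 regions in Ctrl and 4, 2 and 1 in cKO. Of its 14 regions, 5 were called in 3 Ctrl and 0 cKO libraries, as were 9.23% of all distal regions. Its share was 3.61 ± 0.803 against 2.10 ± 0.696, a difference of -0.74 ± 0.31 (limma adjusted p = 0.272). Erg, an ETS factor of endothelium, had 5, 4 and 7 against 1, 1 and 0 regions. Cdh5, the cadherin of endothelial junctions, had 16, 14 and 17 against 5, 5 and 3 and a difference of -0.31 ± 0.23.

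Lists of the other tissues that the sort could hold were read the same way. The pharyngeal endoderm list had 6 of 16 genes tested, 1 above without overlap (Foxe1) and a median of 0.13 (0.21 after width matching), and Foxa2 and Pax1 had 7, 10 and 12 against 6, 2 and 2 regions and 7, 10 and 13 against 5, 1 and 2. The epithelium list had 4 of 20 genes tested and a median of 0.86, or 0.26 after width matching. Its 2 genes above without overlap, the neighbouring keratin genes Krt8 and Krt18, had 3 regions each with the same calls, 3, 2 and 2 against 2 in each cKO library. The otic and placode list had a median of -0.34 over 9 tested of 20, or -0.41 after width matching. In it 1 gene lay below (Otx1) and 1 above (Foxi3) without overlap. Eya2 had 12, 6 and 8 against 5, 1 and 0 regions and Lmx1a 13, 14 and 12 against 5, 4 and 2. The neural tube and neural crest list had a median of -0.22 over 6 tested of 18, which turned to 0.18 after width matching, 1 below (Pax6) and 1 above (Neurog2) without overlap, with Ets1 at 30, 23 and 28 against 13, 14 and 9 regions.

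Paraxial mesoderm and limb genes had the lowest median of the 17 lists, -0.45 over 12 tested of 19, or -0.63 after width matching. Of the values 9 were negative and 3 positive, and 2 genes lay below without overlap, Tshz3 and Meis1. Tshz3, a zinc finger gene of smooth muscle and neurons, had 14, 7 and 10 regions in Ctrl and 1, 2 and 1 in cKO, shares of 3.47 ± 0.966 and 1.39 ± 0.676 and a difference of -1.24 ± 0.38 (limma adjusted p = 0.213). Prrx1, a homeobox gene of limb and craniofacial mesenchyme, had 8, 5 and 8 against 3, 0 and 0 regions, and the shares of the groups overlapped through cKO 1. Meis2, with 23 regions, had a difference of 0.18 ± 0.27.

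**Figure D5:**
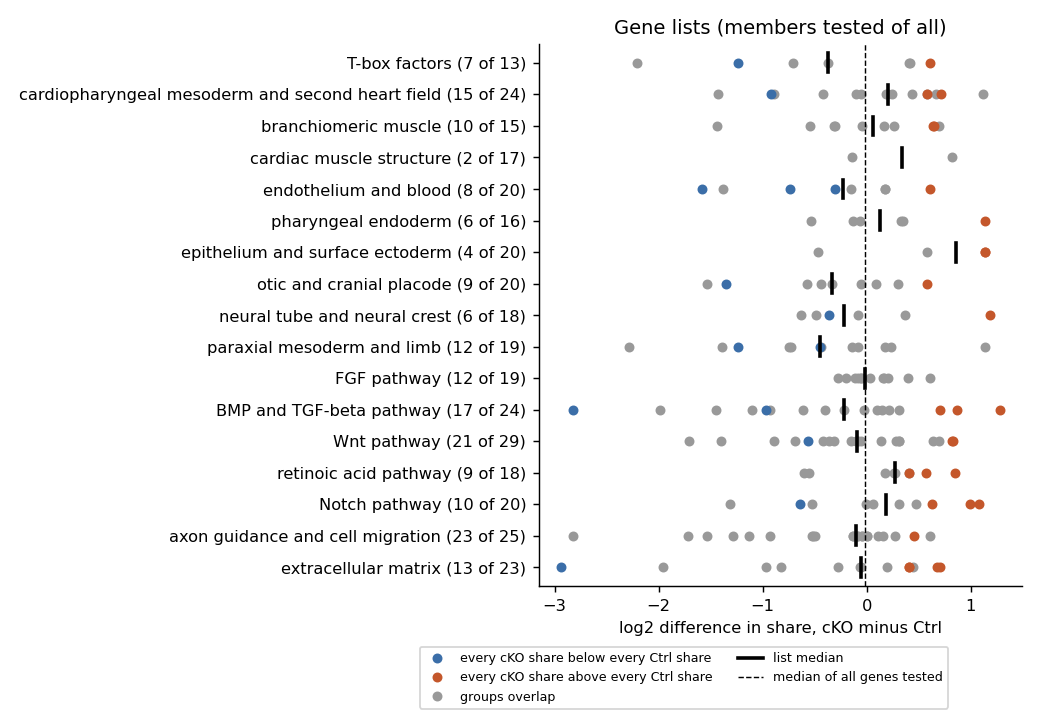
Differences in share between cKO and Ctrl (log2, horizontal axis) of the tested members of 17 gene lists. Black ticks are list medians and the dashed line is the median of all genes tested, -0.01. The medians lie between -0.45 for paraxial mesoderm and limb and 0.86 for the 4 tested genes of the epithelium list. After width matching these medians were -0.63 and 0.26.

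In the FGF list the median was -0.01, or -0.033 after width matching. All 12 tested of 19 FGF genes lay between -0.28 and 0.61 and none was without overlap between the groups. Fgf10, a ligand of the second heart field, had 2, 7 and 8 against 2, 1 and 2 regions and a difference of -0.06 ± 0.53. The receptor gene Fgfr2 and the inhibitor genes Spred2 and Spry2 had differences of 0.04, -0.11 and 0.17.

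The BMP and TGF-beta list spread from -2.83 to 1.29 in 17 tested of 24 genes, with 2 below and 3 above without overlap. Its median was -0.21, or -0.16 after width matching. The ligand gene Bmp6 had 5, 3 and 6 regions in Ctrl and 0 in each cKO library, a share at least 1.64-fold lower at the floor of 3 calls over the group. Bmp7, another ligand gene, had 20, 13 and 13 regions in Ctrl and 8, 0 and 1 in cKO, shares of 5.19 ± 1.12 and 2.35 ± 2.92 that overlapped through cKO 1. Smad3, a signal transducer of TGF-beta, had 21, 10 and 11 against 5, 2 and 1 regions and a difference of -0.97 ± 0.36 (limma adjusted p = 0.244). The 3 above were the receptor gene Bmpr2 and the BMP target genes Id1 and Id3. All 2 regions of Bmpr2 were called in all 6 libraries, and Id1 and Id3 had 5, 3 and 4 against 3, 3 and 2 regions and 6, 4 and 5 against 4, 3 and 2.

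The Wnt list had 21 of 29 genes tested, 1 below (the receptor gene Fzd1) and 2 above without overlap and a median of -0.10, or -0.018 after width matching. The receptor gene Fzd7 had 13, 5 and 10 regions in Ctrl and 2, 2 and 0 in cKO, and the groups overlapped. The secreted inhibitor gene Sfrp2 and the receptor gene Ror1 had 6, 6 and 8 against 6, 3 and 4 regions and 6, 4 and 8 against 4, 4 and 3, both above without overlap. Wnt11, a ligand of the outflow tract, had 16, 5 and 5 against 3, 2 and 1 regions, and its difference of -0.42 was 0.06 without Ctrl 1. The nuclear effector gene Tcf7l2 had 25, 11 and 14 against 5, 5 and 3 regions.

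In the Notch list, with 10 tested of 20 genes and a median of 0.19 (0.028 after width matching), 1 gene lay below (Notch2) and 3 above without overlap. The 3 were the receptor gene Notch3 (4, 3 and 3 against 3, 2 and 3 regions), the ligand gene Dll1 (3, 2 and 3 against 2 in each) and the target gene Hey1 (9, 8 and 9 against 5, 5 and 4). Jag1 and Hes1 had wide spreads in cKO, with 6, 1 and 4 and with 5, 5 and 0 regions. In the retinoic acid list 9 of 18 genes were tested, with 3 above without overlap (Rdh10, Cyp26c1 and Rara) and a median of 0.27, or 0.051 after width matching. Rdh10, which makes the precursor of retinoic acid, had 6, 4 and 5 against 4, 2 and 4 regions, and Cyp26b1, which degrades it, had 14, 6 and 10 against 3, 3 and 1.

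Axon guidance and cell migration genes had many distal regions, and 23 of 25 were tested. Of these 16 had negative and 7 positive values, with 0 below and 1 above without overlap (Plxna1) and a median of -0.10, or -0.29 after width matching. The guidance ligand gene Slit2 had 4, 15 and 17 regions in Ctrl and 3, 0 and 0 in cKO, and the shares of Ctrl 1 and cKO 1 were the ones that overlapped. The semaphorin gene Sema6a had 13, 16 and 19 against 6, 2 and 1. Robo1, a receptor of Slit ligands, had 21, 20 and 24 against 10, 7 and 5 regions, with shares of 7.38 ± 0.582 and 7.11 ± 0.0779.

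The extracellular matrix list had 13 of 23 genes tested, 1 below (Lamc1) and 4 above (Tnc, Col1a2, Col2a1 and Lama1) without overlap and a median of -0.06, or -0.034 after width matching. Lamc1, a laminin chain gene, had 5, 4 and 6 regions in Ctrl and 0 in each cKO library, a share at least 1.76-fold lower at the same floor (limma adjusted p = 0.213). Col1a2, a chain of type I collagen, had 6, 4 and 5 against 4, 3 and 2 regions, which lay above in share. Over the 17 lists none had a gene past the adjusted test, and shares of members without overlap are to be read against 7.41% below and 17.5% above among all genes tested.

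The 5 genes with the most distal regions did not all behave alike. Auts2, a chromatin and neuronal gene with 65 regions, had 52, 35 and 42 called in Ctrl and 22, 14 and 7 in cKO, shares of 14.6 ± 1.96 and 13.3 ± 2.92 that overlapped. Nrxn3, a synaptic adhesion gene, had 8, 35 and 39 against 15, 8 and 5, and Ctrl 1 was the lowest of all in share. Zmiz1 and Rapgef5 had overlapping shares of 10.3 ± 3.49 and 13.3 ± 3.24 and of 9.85 ± 2.27 and 8.03 ± 1.09. Camk1g, a calcium-dependent kinase gene with 44 regions, was the one of the 5 without overlap, with 24, 32 and 26 against 6, 4 and 5 regions, shares of 9.41 ± 2.20 and 5.15 ± 1.71 and a difference of -0.86 ± 0.29 (limma adjusted p = 0.224).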

How the data were processed

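The deposited values were interval positions of ATAC-seq peaks (chromosome, start and end in bp), without score or depth. The authors had cut adapters from the reads, mapped them to mm9 with Bowtie2 2.3.4.3, dropped PCR duplicates and mitochondrial pairs, and run MACS2 separately on every library. The GENCODE annotation of NCBIM37 (mm9) gave TSS and genes. Peaks overlapping by at least 1 bp were merged. The study removed ENCODE blacklist regions of mm9 from its own peak comparison, whereas they were not removed here. Genes with a mean of at least 2 distal regions over the 6 libraries were tested with limma 3.58.1 (R 4.3.3, two-sided, trended variance, Benjamini-Hochberg over all genes tested) on log2 of the share with a pseudocount of 0.5 regions scaled by library. The pseudocount makes a fold change smaller for genes with few regions. On simulated counts limma recovered 0 of 174 planted 2-fold lower and 0 of 117 planted 2-fold higher shares. At 4-fold it recovered 26 of 148 lower and 1 of 73 higher ones. It also made 8 false calls with 4-fold lower shares planted, in genes with no region in one group. Single values were compared by exact permutation over 20 relabellings. Replicates are separate libraries of pooled embryos, so p-values measure the spread between libraries, and counts of calls cover no sampling error.

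Named genes were Tbx1, the 12 genes of smallest p in each direction (none passed the adjusted test), the 3 members of each list with the most distal regions and the 5 genes with the most distal regions. Other list members named were chosen after their values were seen. Genes and lists were chosen with earlier results of these data known. The alternatives covered the pseudocount, the filter, the distal limit, the assignment, list length, peak width, recurrence, merging, the quantity, centring, the test, the replicate block and leaving out each library. Python 3.11.15 with pandas 2.3.3 was used.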

Additional observations from a re-analysis of the deposited data

How the results depend on the processing

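No gene passed limma's adjusted test in the main fit or any alternative. The counts at unadjusted p were added after this was seen. Genes below and above without overlap numbered 85 and 116 (8.30% and 11.3% of 1024 tested) with equal numbers of widest peaks. They numbered 96 and 169 (8.07% and 14.2% of 1189) with a mean of at least 4 regions. With no filter there were 1141 and 1566 (9.44% and 13.0% of 12081). The lower count was 145 (7.26% of 1996) in the widest 75% of peaks and the higher 362 (11.2% of 3239) after width matching. At unadjusted p, lower and higher counts were 48 and 45 (4.69% and 4.39% of genes tested) with equal numbers of widest peaks. They were 69 and 108 (5.80% and 9.08%) with a mean of at least 4 and 1163 and 1157 (9.63% and 9.58%) with no filter. The lower count was 313 (9.66%) by covered base pairs, 86 (2.66%) with quasi-Poisson and 94 (2.90%) after width matching. Leaving out 1 library in turn gave 277 to 577 and 574 to 857 genes without overlap, and 69 to 386 and 199 to 393 at unadjusted p. The cause was not tested, except that the filters change the genes tested. Replicate numbers did not pair the libraries (deviation correlations 0.017, -0.015 and 0.019), and a replicate block gave 0 adjusted calls, with 206 lower and 299 higher at unadjusted p. Peak lists give no sequencing depth, so differences in depth cannot be told apart from genotype. None of the following differences passed the adjusted test, and their log2 values changed sign. With equal numbers of widest peaks they were Trim27 -0.040, Limch1 -0.12, Nrxn3 -0.78, Zmiz1 -0.10, Tbx3 0.24, Tbx18 -0.60, Foxc2 -0.33, Eya1 0.22, Runx1 -0.47, Pax3 0.57, Meis2 -0.46, Smad7 -0.033, Tcf7l2 0.0064, Ror2 -0.49, Robo1 0.13, Nrp2 0.28, Has2 0.19. After width matching they were Zmiz1 -0.028, Tbx18 -0.065, Foxc2 -0.27, Runx1 -0.17, Epcam -0.083, Pax3 0.23, Meis2 -0.0021, Smad7 -0.093, Ror2 -0.12, Rarb -0.10, Rxra -0.15, Robo1 0.086. Within 100 kb of the TSS they were Zmiz1 -0.46, Rapgef5 0.21, Foxc2 -0.34, Ebf1 0.20, Cdh5 0.24, Pax3 0.21, Meis2 -0.084, Fgfr2 -0.30, Smad7 -0.076, Tcf7l2 0.14, Rarb -0.65, Nrp2 0.15. With the nearest TSS of any gene they were Rapgef5 0.085, Wnt11 0.51, Eya1 0.30, Pax3 0.24, Spred2 0.15, Smad7 -0.21, Robo1 0.075, Nrp2 0.20. By covered base pairs they were Nrxn3 -0.33, Wnt11 0.36, Eya1 0.013, Ryr2 0.32, Cdh5 0.087, Fgfr2 -0.23, Smad7 -0.12, Rxra -0.28. In the widest 75% of peaks they were Nrxn3 -0.84, Eya1 0.15, Cdh5 0.051, Pax3 0.077, Pax7 0.016, Fgfr2 -1.08, Tcf7l2 0.13, Rxra -1.03. In regions of at least 2 libraries they were Eya1 0.064, Runx1 -0.028, Pax3 0.048. Over 5 kb from a TSS they were Foxc1 0.17, Has2 0.042. With peaks within 200 bp merged they were Col4a2 -0.075. With quasi-Poisson they were Nrxn3 -0.042, Fgfr2 -0.00047. Leaving out 1 library in turn gave Auts2 -0.27 to 0.043, Nrxn3 -0.58 to 0.53, Wnt11 -0.68 to 0.063, Eya1 -0.39 to 0.18, Ryr2 -0.44 to 0.074, Runx1 -0.016 to 0.39, Foxa2 -0.38 to 0.099, Grhl2 -0.78 to 0.0036, Pax3 -0.26 to 0.058, Meis2 -0.034 to 0.42, Fgfr2 -0.093 to 0.14, Spry2 -0.19 to 0.74, Rarb -0.045 to 0.37, Jag1 -0.97 to 0.15, Hes1 -2.20 to 0.073, Has2 -0.31 to 0.11, Col4a2 -0.051 to 0.62.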
